A study of Mus musculus with 10 samples.

Results

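The COPII, COPI and Golgi traffic genes are 49 genes whose products carry new proteins out of the endoplasmic reticulum (ER), through the ER-Golgi intermediate compartment and into the Golgi, and bring escaped ER residents back. They were chosen by name, each was represented by its brightest probe set that carries a single gene symbol, and all 49 were measured, of 22180 genes in all. Plasma cells were sorted as B220-negative and Blimp1-positive from marrow of B6.BLIMP1 +/GFP mice, whose GFP reporter in an allele of the Blimp1 locus is carried by both groups, and their RNA was read on Affymetrix arrays. Untreated mice gave 5 arrays and mice given rapamycin, an inhibitor of the kinase complex mTORC1, gave 5. The sources used here give no dose, duration, age or sex. The comparison is of the transport machinery of antibody-secreting cells between treated and untreated mice.

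Plasma cells release very large amounts of antibody, all of which passes from the ER to the Golgi in coated vesicles. The GTPase Sar1 recruits the COPII coat at ER exit sites, cargo receptors and the Sec24 subunits select what is loaded, and tethers and SNARE proteins dock and fuse the carriers with the next compartment. The COPI coat, recruited by Arf GTPases, returns vesicles to the ER, and KDEL receptors bring escaped chaperones back there.

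Over all genes, pairs of arrays from 1 group correlated at 0.989 to 0.994 (Pearson's r, across genes, which are not independent replicates). Rapamycin replicate 4 stood apart on the first principal component over all genes, where its score was 22.3 and the other 4 of its group scored 4.17 to 8.85. The defining plasma cell markers Prdm1, Irf4, Xbp1, Sdc1, Tnfrsf17, Jchain and Ighm were all above the median level of genes, with summed log2 levels of 80.2 to 81.1 in untreated and 80.8 to 81.8 in rapamycin arrays. All 7 were higher with rapamycin, beside 53.1% of all genes. Prdm1, the gene of Blimp1 on whose reporter the cells were sorted, differed by 0.41 without overlap (9.71 ± 0.23 to 10.12 ± 0.06, adjusted p = 0.117 in limma). The part of Prdm1 in the values below was not tested. The other markers of this list differed by 0.02 to 0.11, each with overlap. The log2 level of Xist was 3.83 ± 0.10 without and 9.24 ± 0.28 with rapamycin (mean ± SD, n = 5 each), and that of the Y-linked Eif2s3y was 8.03 ± 0.46 and 3.84 ± 0.24. Treatment and sex of the mice thus cannot be told apart in any value that follows. In bulk samples, fewer cells of a type and less RNA per cell cannot be told apart either.

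No traffic gene passed the test. In limma, after Benjamini-Hochberg adjustment over all genes, 0 of the 49 were called higher with rapamycin and 0 lower at an adjusted p under 0.05, beside 0.126% and 0.0271% of all genes. At an unadjusted p under 0.05, 1 traffic gene was higher, namely Tmed10, and 3 were lower, namely Tfg, Sec24a and Copb1. The shares of all genes at that threshold were 6.13% and 3.26%, so that the 4 genes, 8.16% of the 49, lay near the 9.39% of all genes in either direction. The median log2 difference, rapamycin minus untreated, was 0.01 over the 49 genes and 0.01 over all genes. It lay above 0 for 25 of the genes and below 0 for 24, beside 53.1% and 46.9% of all genes.

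The measurements also limit how large a difference could have been missed. The 95% interval of the log2 difference lay within 0.5 on either side of 0 for 48 of the 49 genes, the exception being Tfg, and within 0.3 for 32 of them. For all genes these counts were 20678 and 12494 of 22180. The number of arrays sets this precision. The median standard error of the members was 0.09, so that log2 differences of 0.1 were far from resolved for most of them. Larger ones did not pass either, such as -0.20 for Sec24a (adjusted p = 0.308 in limma) and -0.50 for Tfg (adjusted p = 0.0903 in limma).

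**Figure D1:**
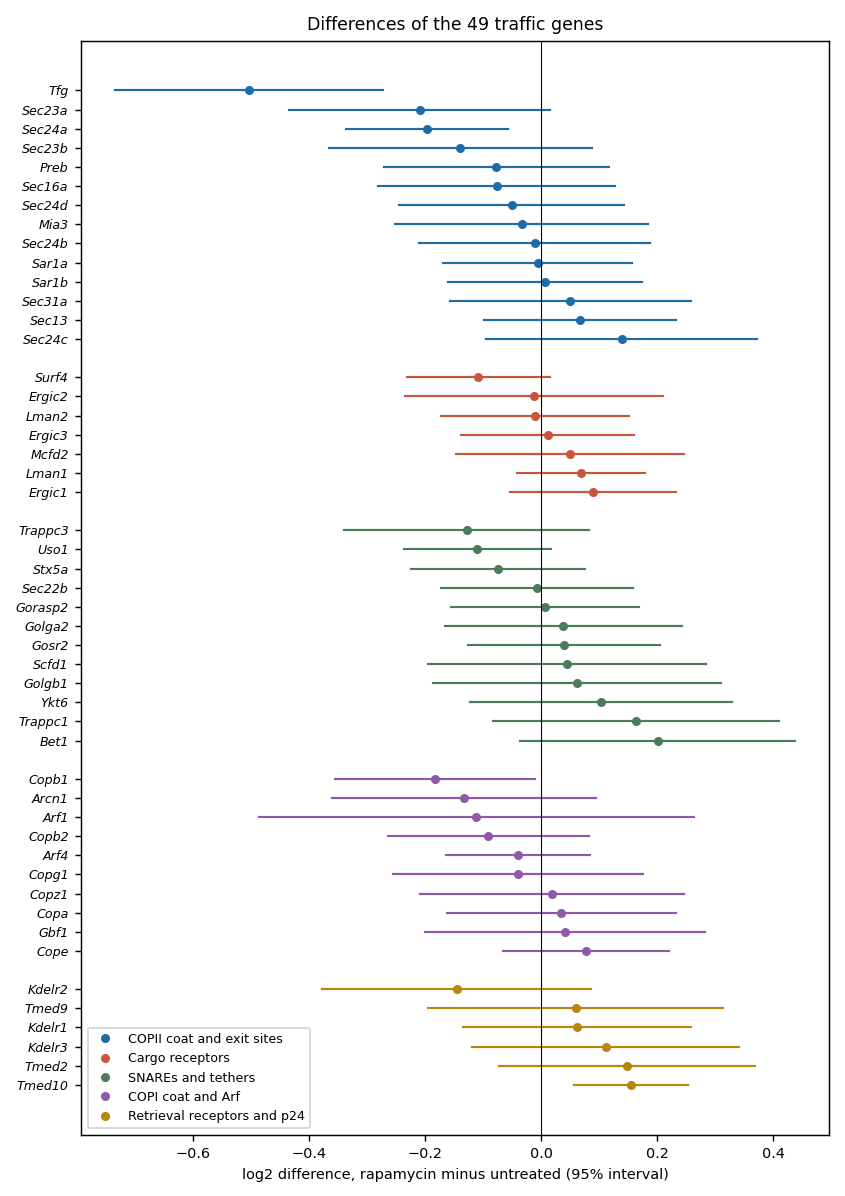
Log2 difference, rapamycin minus untreated, of the 49 traffic genes by step of transport, with the 95% interval of the limma fit as a bar (n = 5 arrays a group). Tfg, at -0.50, lies outside the range of -0.21 to 0.20 that holds the other 48 genes.

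A short sequence recurs in the promoters of these genes. The letters TGACGTGG form the element through which the transcription factors ATF6 and XBP1, which act when unfolded proteins collect in the ER, bind DNA. RefSeq windows of assembly GRCm38.p6, from 250 bases before to 50 bases after each gene's start, were found by symbol for 43 of the 49 genes. On either strand, TGACGTGG was present in the windows of 9 of these 43 genes, or 20.9%. It was present in 0.714% of all 27025 genes with a window, in 1.14% of the 8748 tested genes above the median level and in 2 of 63 other genes of the same pathway. The shorter letters GACGTG, which lie inside it, were present in 19 of the 43 genes (44.2%), against 17.5% of the other pathway genes and 7.15% of all genes with a window. The motifs were picked with earlier results of these data known, the shares were not tested, and a match is not a measured binding site. The genes that hold TGACGTGG came from 4 of the 5 steps, and no cargo receptor was among them. The sites are shown 5′ to 3′ in the direction of the motif, which is in capitals, on the strand given, because their 8 letters are shared by members of different steps.
Sec23a (chr12:59011993-59012022, minus strand): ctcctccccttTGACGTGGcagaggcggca
Sec24d (chr3:123267459-123267488, plus strand): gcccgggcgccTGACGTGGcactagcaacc
Stx5a (chr19:8741422-8741451, minus strand): tcctaactcggTGACGTGGctgctgcgcca
Scfd1 (chr12:51377534-51377562, minus strand): agcccgaagaTGACGTGGccctacctccc
Copb1 (chr7:114254690-114254719, plus strand): aagtccttggcTGACGTGGaagggggcggg
Copb2 (chr9:98563713-98563742, minus strand): ggccaacccacTGACGTGGaacttccggga
Arf1 (chr11:59228228-59228257, minus strand): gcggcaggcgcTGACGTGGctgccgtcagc
Gbf1 (chr19:46152535-46152564, minus strand): tgtcagctcacTGACGTGGtaactagcctc
Kdelr3 (chr15:79516367-79516396, minus strand): tggccgcgcggTGACGTGGcggggcggcca

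Stx5a held a further match on the other strand, which made 10 in all. They began between 30 bases before and 40 bases after the start. That range, which the members' own matches set, covers 23.3% of the window and held 27.7% of the 224 matches in all windows. The 9 genes had a median log2 difference of -0.07 with rapamycin, from -0.21 for Sec23a to 0.11 for Kdelr3, and the 34 others with a window a median of 0.01. None of the 9 passed the test, beside 0.153% of all genes in either direction. The longer ER stress element, CCAAT and CCACG with 9 bases between them, was present in 0 of the 43 windows and in 0.137% of all genes. It was present in 29 of 16990 tested genes with a window, among them Hspa5, the gene of the ER chaperone BiP. Hspa5 fell with rapamycin by 0.71 (SE 0.10, adjusted p = 0.0045 in limma). A part of the element in that fall was not tested, and the differences of its other holders were not examined. The E-box CACGTG was present in 4 of the 43 (9.30%), beside 11.7% of tested genes above the median level and 8.09% of all genes, namely Sar1a, Mcfd2, Uso1 and Tmed10. The cyclic AMP response element TGACGTCA was present in 2 of the 43 (4.65%), namely Gosr2 and Cope, beside 3.54% of tested genes above the median level and 2.03% of all genes.

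**Figure D2:**
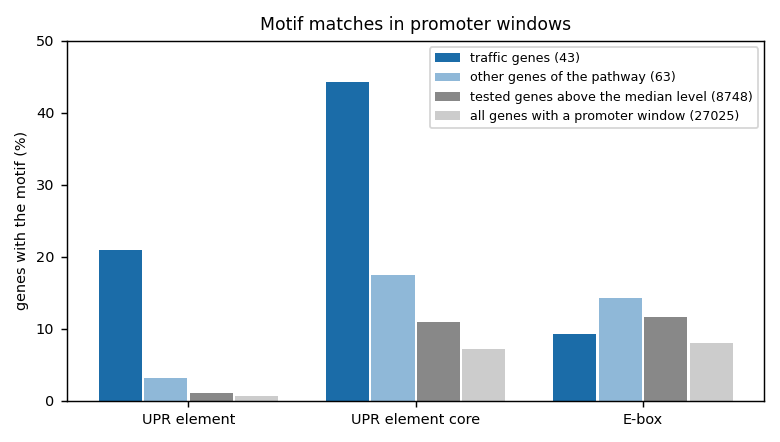
Share of genes, in percent, whose promoter window holds TGACGTGG (UPR element), GACGTG (its core) or CACGTG (E-box) on either strand, for 4 sets of genes with their numbers in the key. The first motif was present in 20.9% of the traffic genes and 0.714% of all genes, while the E-box was present in 9.30% and 8.09%.

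The COPII coat and its exit sites held the largest difference. Over the 14 genes of this step the median log2 difference was -0.04, with 4 above and 10 below 0. Tfg, whose product assembles at ER exit sites and holds COPII carriers near the intermediate compartment, read 9.08, 9.23, 9.25, 9.54 and 9.56 (log2 level) on untreated replicates 1 to 5. On rapamycin replicates 1 to 5 it read 8.78, 8.93, 9.06, 8.58 and 8.80. The 5 rapamycin arrays thus lay below the 5 untreated arrays, with 9.06 and 9.08 as the nearest readings. The log2 difference was -0.50 (SE 0.11, 95% interval -0.73 to -0.27), a level 1.42-fold lower, and the adjusted p was 0.0903 in limma. Tfg passed when only genes above the median level were tested (adjusted p = 0.0449), in the authors' filtered table (adjusted p = 0.0233) and with quantile normalization repeated (adjusted p = 0.0432). Over 19 alternatives its difference ranged from -0.57 to -0.44 and its adjusted p from 0.0233 to 0.205.

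The Tfg promoter held none of the ER stress motifs searched. Its 250 bases before the start are shown because Tfg had the smallest p of the 49 genes, with the letters GCGCATGCG, the core of the site of the factor NRF1, in capitals. They were present 2 times in this stretch and in 3 of the 43 windows (6.98%), beside 6.35% of the other pathway genes, 4.14% of tested genes above the median level and 1.95% of all genes with a window, and were looked for after the sequence had been seen.
Tfg (chr16:56717451-56717700, minus strand): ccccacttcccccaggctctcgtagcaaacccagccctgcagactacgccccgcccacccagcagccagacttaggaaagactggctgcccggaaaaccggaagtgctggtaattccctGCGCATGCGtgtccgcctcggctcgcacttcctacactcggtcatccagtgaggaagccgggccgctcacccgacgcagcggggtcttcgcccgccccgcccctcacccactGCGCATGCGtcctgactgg

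Sec24a, one of the subunits that pick cargo for the coat, was at 10.12, 10.06, 10.11, 10.14 and 9.95 on the untreated arrays and at 9.90, 9.85, 9.83, 9.81 and 9.996 on the rapamycin arrays. Rapamycin replicate 5 lay above untreated replicate 5, so that the groups overlapped. Sec24a differed by -0.20 (log2, SE 0.07, adjusted p = 0.308 in limma). Sec23a, which joins the Sec24 subunits and stimulates Sar1, was at 7.37, 7.77, 7.72, 7.37 and 7.63 on the untreated arrays. On the rapamycin arrays it was at 7.56, 7.35, 7.38, 7.14 and 7.37, which is -0.21 from the untreated mean (log2, SE 0.11, adjusted p = 0.577 in limma). The groups overlapped widely for Sec23a, and rapamycin replicate 4 was its lowest array.

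Paralogues of the coat were set side by side. The log2 difference was -0.14 for Sec23b, -0.01 for Sec24b, 0.14 for Sec24c and -0.05 for Sec24d. For the GTPases Sar1a and Sar1b it was -0.01 and 0.01. Whether paralogues differed in their response was tested on the per-array difference between their log2 levels, over 11 pairs of the Sec23, Sec24, Sar1 and KDEL receptor families. With 5 arrays against 5 the smallest p the test can give is 0.00794, which adjusts to 0.0873 for a lone pair over the 11, so that no single pair could have passed. The smallest p was that of Sec24a against Sec24c, where the response differed by -0.34 (two-sided exact permutation p = 0.0476, adjusted p = 0.412 over the pairs). Among the remaining genes of the step, differences were -0.08 for Preb, the exchange factor of Sar1, -0.08 for the exit-site scaffold Sec16a and -0.03 for Mia3, a receptor for bulky cargo. They were 0.07 and 0.05 for Sec13 and Sec31a, which build the outer cage.

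**Figure D3:**
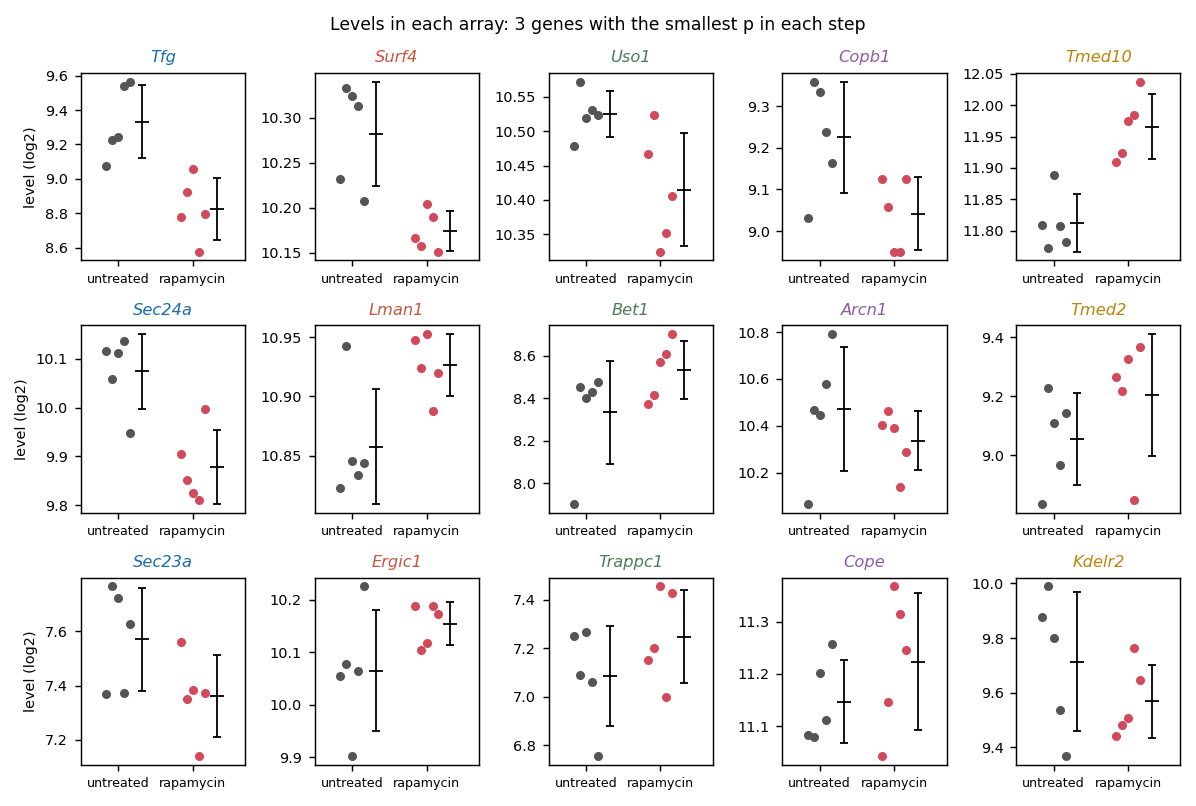
Log2 level in each array of the 3 genes with the smallest p in each step (a column a step), for 5 untreated and 5 rapamycin arrays in the order of their replicate numbers, with the mean and SD as a bar. The axes differ between panels; the groups do not overlap for Tfg, Surf4 and Tmed10.

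No cargo receptor passed the test, beside 0.153% of all genes in either direction. Their 7 genes had log2 differences from -0.11 to 0.09, with a median of 0.01. Surf4, a receptor for soluble secreted proteins, was at 10.23, 10.33, 10.32, 10.31 and 10.21 on the untreated arrays and at 10.17, 10.16, 10.20, 10.19 and 10.15 on the rapamycin arrays. The groups did not overlap, and the difference was -0.11 (SE 0.06, adjusted p = 0.61 in limma). Groups without overlap were found for 3 traffic genes (6.12%, beside 2.06% of all genes), Tmed10 above (beside 1.48%) and Tfg and Surf4 below (beside 0.586%). Lman1, the lectin ERGIC-53 that loads glycoproteins, was at 10.82, 10.94, 10.85, 10.83 and 10.84 on the untreated and 10.95, 10.92, 10.95, 10.89 and 10.92 on the rapamycin arrays. Untreated replicate 2 was the array of its group that reached the rapamycin range, and the difference was 0.07 (SE 0.05, adjusted p = 0.759 in limma). Ergic1, of the intermediate compartment, was at 10.06, 10.08, 9.90, 10.06 and 10.23 on the untreated and 10.19, 10.10, 10.12, 10.19 and 10.17 on the rapamycin arrays, a difference of 0.09 with overlap (SE 0.07, adjusted p = 0.759 in limma). Mcfd2, the partner of Lman1, differed by 0.05. Lman2, Ergic2 and Ergic3 differed by -0.01, -0.01 and 0.01.

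The SNAREs and tethers had a median difference of 0.04 over 12 genes, with 8 above and 4 below 0. Uso1, the tether p115, was at 10.48, 10.57, 10.52, 10.53 and 10.52 on the untreated arrays and at 10.47, 10.52, 10.32, 10.35 and 10.41 on the rapamycin arrays. Rapamycin replicate 2 lay inside the untreated range and the other 4 below it, with a difference of -0.11 (SE 0.06, adjusted p = 0.616 in limma). Bet1, a SNARE of vesicles that leave the ER, was at 7.90, 8.45, 8.40, 8.43 and 8.48 on the untreated and 8.37, 8.41, 8.57, 8.61 and 8.70 on the rapamycin arrays. Its difference of 0.20 (SE 0.11, adjusted p = 0.632 in limma) was the highest of the 49 genes with all arrays. Untreated replicate 1 lay below all other arrays, and without it the difference was 0.09, under the 0.21 of Trappc1. Trappc1, of the TRAPP tethering complex, was at 7.25, 7.09, 7.27, 7.06 and 6.75 on the untreated and 7.15, 7.20, 7.46, 7.0 and 7.43 on the rapamycin arrays, with overlap (difference 0.16, SE 0.12, adjusted p = 0.735 in limma). Trappc3, of the same complex, differed by -0.13. The other SNARE genes differed by -0.07 for Stx5a, 0.04 for Gosr2, 0.10 for Ykt6 and -0.01 for Sec22b. Scfd1, which assists Stx5a, differed by 0.04, and the Golgi matrix genes Golga2, Gorasp2 and Golgb1 by 0.04, 0.01 and 0.06.

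The COPI coat and Arf genes had a median difference of -0.04 over 10 genes, with 4 above and 6 below 0. Copb1, the beta subunit of the coat, was at 9.03, 9.36, 9.33, 9.24 and 9.16 on the untreated and 9.12, 9.06, 8.95, 8.95 and 9.13 on the rapamycin arrays. Untreated replicate 1 lay among the rapamycin arrays and the other 4 above them, with a difference of -0.18 (SE 0.08, adjusted p = 0.496 in limma). Arcn1, the delta subunit, was at 10.07, 10.47, 10.45, 10.58 and 10.79 on the untreated and 10.40, 10.46, 10.39, 10.14 and 10.29 on the rapamycin arrays, a difference of -0.13 with overlap (SE 0.11, adjusted p = 0.781 in limma). Untreated replicate 1 was again the lowest array of its group. Cope, the epsilon subunit, was at 11.08, 11.08, 11.20, 11.11 and 11.26 on the untreated and 11.04, 11.15, 11.37, 11.32 and 11.25 on the rapamycin arrays, a difference of 0.08 with overlap (SE 0.07, adjusted p = 0.803 in limma). The other subunits differed by 0.03 for Copa, -0.09 for Copb2, -0.04 for Copg1 and 0.02 for Copz1.

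Arf1, the GTPase that recruits the coat, was the member with the widest spread among rapamycin arrays. It was at 11.57, 11.96, 11.49, 11.72 and 11.74 on the untreated arrays and at 11.80, 11.71, 11.85, 10.68 and 11.87 on the rapamycin arrays. Its difference was -0.11 with all arrays and 0.11 without rapamycin replicate 4, the array at 10.68. A dimmer probe set of Arf1 did not show that low reading, with 8.38 ± 0.05 in the rapamycin group. Arf4 differed by -0.04 and Gbf1, the exchange factor that loads Arf1 with GTP, by 0.04.

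Of the genes of retrieval, Tmed10, a p24 family protein that cycles between ER and Golgi and takes part in both coats, was the gene higher with rapamycin at an unadjusted p under 0.05. It was at 11.81, 11.77, 11.89, 11.81 and 11.78 on the untreated and 11.91, 11.92, 11.97, 11.98 and 12.04 on the rapamycin arrays. Its groups did not overlap, and the difference was 0.15 (SE 0.05, adjusted p = 0.244 in limma), a level 1.11-fold higher. Its second probe set differed by 0.36, with overlap, and the third, near the bottom of the range at 3.85 ± 0.07 in untreated arrays, by 0.01. Tmed2, another p24 protein, was at 8.83, 9.23, 9.11, 8.97 and 9.14 on the untreated and 9.26, 9.22, 9.33, 8.85 and 9.37 on the rapamycin arrays. Rapamycin replicate 4 was the lowest of its group, the groups overlapped also without it, and the difference was 0.15 (SE 0.10, adjusted p = 0.732 in limma), or 0.24 without that array (SE 0.09, adjusted p = 0.404 in limma). Tmed9 differed by 0.06.

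The KDEL receptors return chaperones such as BiP to the ER, and none of their 3 genes passed the test, beside 0.153% of all genes. Kdelr2 was at 9.88, 9.99, 9.80, 9.54 and 9.37 on the untreated and 9.44, 9.48, 9.51, 9.76 and 9.65 on the rapamycin arrays, a difference of -0.15 with overlap (SE 0.11, adjusted p = 0.756 in limma). Kdelr1 and Kdelr3 differed by 0.06 and 0.11. In the two-sided exact permutation test over the pairs, the response of Kdelr1 minus that of Kdelr2 was 0.21 (p = 0.262) and that of Kdelr2 minus Kdelr3 was -0.26 (p = 0.254), both at an adjusted p of 0.412. The 95% intervals were -0.38 to 0.09 for Kdelr2, -0.14 to 0.26 for Kdelr1 and -0.12 to 0.34 for Kdelr3, beside -0.92 to -0.50 for Hspa5; the difference from Hspa5 was not tested.

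**Figure D4:**
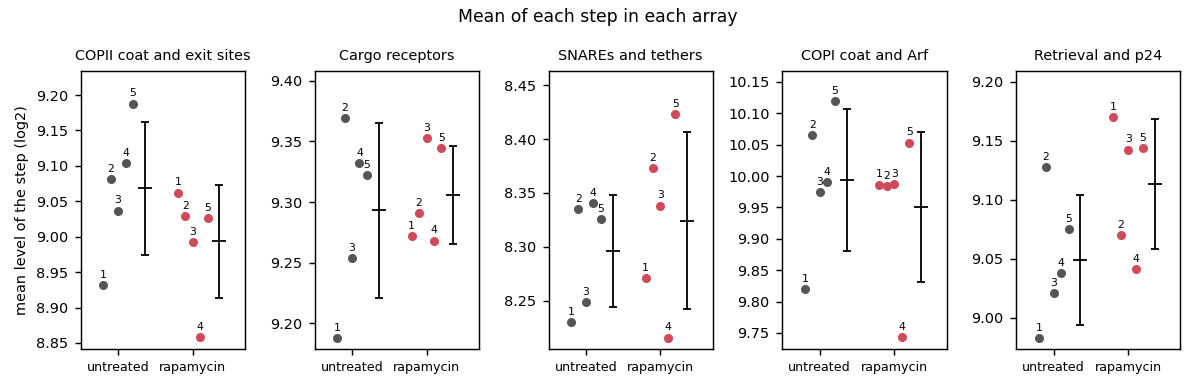
Mean log2 level of the genes of each step in each array, labelled with the replicate number, with the group mean and SD as a bar (n = 5 arrays a group). The groups overlap in all 5 steps, and rapamycin replicate 4 and untreated replicate 1 are the lowest arrays of their groups in each step.

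The level of the whole set overlapped between the groups and was low on an array of each. The mean over the 49 genes was 9.10 ± 0.08 in untreated and 9.08 ± 0.07 in rapamycin arrays. Its lowest values were 8.96 on rapamycin replicate 4 and 8.98 on untreated replicate 1, and the other 8 arrays lay between 9.06 and 9.17. The same 2 arrays had the highest medians over all genes, 5.26 and 5.23 against 5.14 to 5.19 on the others, and the part of this in the low traffic means was not tested. The COPI and Arf genes had means of 9.74 and 9.82 on those 2 arrays and 9.97 to 10.12 on the others. Without untreated replicate 1, 7 traffic genes were lower at an unadjusted p under 0.05, adding Sec23b, Copb2, Arcn1 and Sec23a to Tfg, Sec24a and Copb1, where 3.68% of all genes were lower. Without rapamycin replicate 4, 3 were higher, namely Tmed10, Tmed2 and Sec24c, where 5.64% of all genes were higher, and 2 were lower, namely Tfg and Sec24a, where 3.61% were lower. After adjustment 0 of these passed in either case, beside 0.176% and 0.104% of all genes. The smallest adjusted p was 0.0518, for Tfg without untreated replicate 1 (limma).

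**Figure D5:**
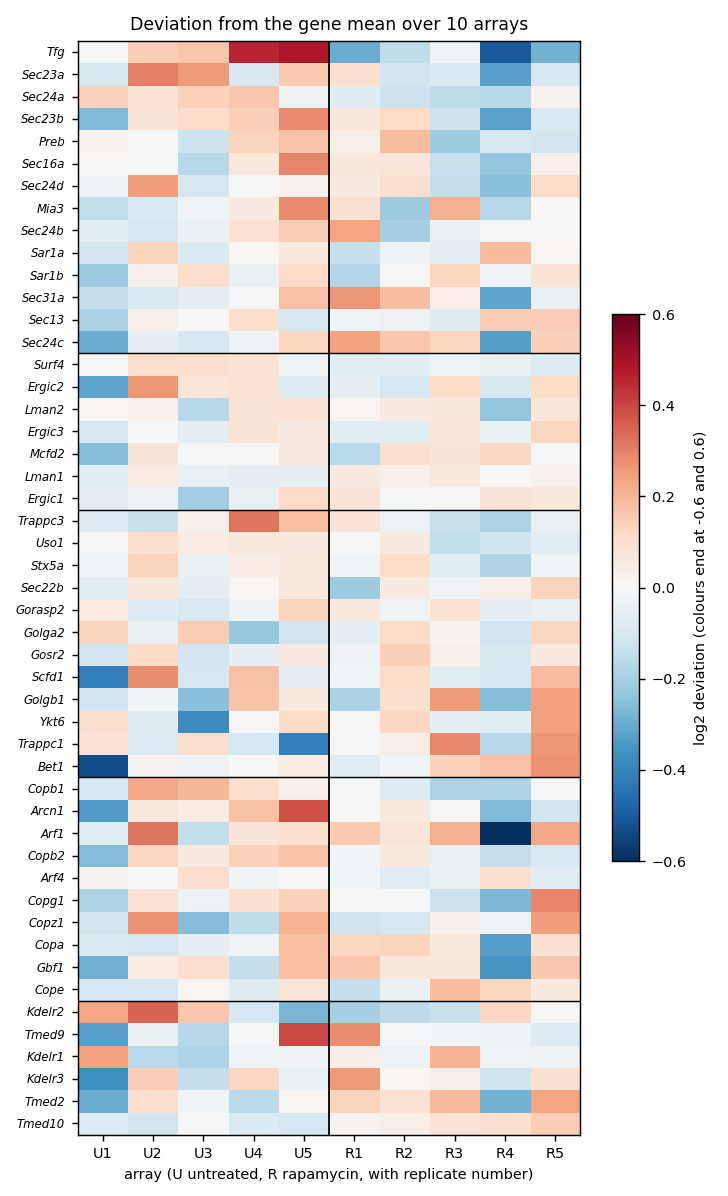
Log2 deviation of each traffic gene from its own mean over the 10 arrays, in rows by step of transport and in columns by array. Columns U1 and R4 are mostly blue, below the mean, while no step parts the 5 untreated from the 5 rapamycin columns.

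No other gene of the pathway passed the test. Of 74 listed, 71 were measured. In limma 0 of these were called in either direction at an adjusted p under 0.05, beside 0.153% of all genes. With so small a share over all genes, 0 of 71 does not set the pathway apart. At an unadjusted p under 0.05, 6 were higher and 2 lower (8.45% and 2.82%, beside 6.13% and 3.26% of all genes), and their median log2 difference was 0.02. The smallest p belonged to Sec22a, of the Sec22 family, with a difference of 0.32 (6.40 ± 0.08 to 6.72 ± 0.13, adjusted p = 0.207 in limma), and its groups did not overlap. Use1, a SNARE of the return route to the ER, differed by 0.30 and Bet1l, a SNARE within the Golgi, by 0.19. Arfgap1, which switches Arf1 off, differed by -0.25, without overlap between the groups (8.20 ± 0.09 to 7.96 ± 0.09, adjusted p = 0.293 in limma). Klhl12, an adaptor of the ubiquitin ligase that acts on Sec31, differed by 0.22 and Trappc8, of the TRAPP complex, by -0.30.

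Markers of other marrow cells were read beside these values. Of the 14 neutrophil genes, 13 lay above the median level of genes, Retnlg being below it. With rapamycin 13 of the 14 were higher, beside 53.1% of all genes. At an unadjusted p under 0.05, 4 were higher, beside 6.13% of all genes, and 0 passed after adjustment, beside 0.153%. The summed log2 level of the 14 was 86.9 to 96.2 in untreated and 92.3 to 99.1 in rapamycin arrays, which overlapped. Of 7 B cell genes measured, 4 lay above the median level of genes, among them Ms4a1 (7.70 ± 0.31 in untreated arrays) and Ebf1 (7.79 ± 0.25), and Pax5, Fcer2a and Cr2 lay below it. At an unadjusted p under 0.05, 2 of the 7 were higher with rapamycin, Ebf1 by 0.36 and Cr2 by 0.37. At that threshold 3 were lower, with differences of -0.39 for Bach2, -0.44 for Cd22 and -0.18 for Pax5. The shares of all genes were 6.13% and 3.26%, and 0 of the 7 passed after adjustment, beside 0.153% of all genes. Of 5 T cell genes measured, Cd3g and Cd4 lay above and Cd3d, Cd3e and Cd8a below. Of 8 eosinophil and basophil genes measured, Prg2, Rnase2a and Siglecf lay above and Epx, Ccr3, Mcpt8, Cpa3 and Fcer1a below. Of 7 monocyte and macrophage genes measured, Ly6c2, Cd68 and C1qa lay above and Csf1r, Adgre1, Fcgr1 and Ccr2 below. Of 4 erythroid genes measured, Slc4a1 lay above and Klf1, Epor and Tfrc below. In limma Prg2 rose by 0.42 (adjusted p = 0.0473), Rnase2a fell by 1.28 (adjusted p = 0.0347) and Ly6c2 rose by 0.45 (adjusted p = 0.0439), while Cd68 differed by -0.33 (adjusted p = 0.291). The summed levels of each of these lists overlapped between the groups, and their part in the traffic genes' differences was not tested.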

How the data were processed

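The deposited tables hold log2 expression values per probe set that the authors computed with RMA, per the submitters' processing notes. RMA subtracts background, equalises the arrays' quantiles and combines probes; its version was not stated there. A common shift of all transcripts cannot be seen after such normalization. Groups and replicate numbers came from the sample titles. The series' design gives 5 mice a group and the titles number 5 replicates, without saying that each array is 1 mouse; p-values measure the spread between these samples. No scan date or batch is given.

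Of 41345 probe sets, 23521 have 1 gene symbol in the platform annotation, which gave 22180 genes by the brightest probe set; 7 of the 49 traffic genes have several. Probes of close paralogues can be shared. Rapamycin was compared with untreated in limma 3.58.1 (R 4.3.3) with lmFit and eBayes, an intensity trend, no covariate and no filter, two-sided, and Benjamini-Hochberg adjusted over all genes. Standard errors and adjusted p-values of genes are those of this limma fit. On simulated data of 22180 genes it recovered 81% of 100 genes changed by 0.5 and 100% of 100 changed by 1, with 15 false calls. The simulated noise was normal and independent between genes, and more genes were changed than the 34 called in the data. These shares may therefore overstate what the fit recovers here. Paralogue pairs were compared by exact permutation in scipy 1.17.1. Promoter sequences are RefSeq's, and figures were drawn with matplotlib 3.10.9. The members, the gene lists and the motifs were chosen with earlier results of these data known. Levels per array are given for the 3 genes with the smallest p in each step and, after its values were seen, for Arf1; of the other pathway genes the 6 with the smallest p are named. Alternative fits changed the handling of probe sets, filters (with the authors' filtered table of 12280 probe sets), normalization, array weights, the intensity trend, X- and Y-linked genes and the threshold, blocked on replicate number, or left 1 array out. The labels do not say whether the replicate numbers pair the samples. Deviations of same-numbered arrays from their group means correlated at -0.07 to 0.05, and only for replicate 5 was the same-numbered array the best match. Such values cannot show whether the samples were paired.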

Additional observations from a re-analysis of the deposited data

Results flagged for a closer look

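Among 98 groups of 5 arrays (49 traffic genes in 2 groups), 13 held an outlying array. Its gap to the nearest other array was large against the range of the group, where chance flags about 1 in 20 independent groups. The 98 groups share the same 10 arrays, and the share flagged over all genes was not computed. Whether such flags are more frequent in traffic genes than in others is thus not known. Of the 13, 7 were on rapamycin replicate 4, which also stood apart over all genes. On that array Arf1 was at 10.68 (others 11.71 to 11.87), Copa at 9.46 (9.86 to 9.93), Gbf1 at 8.11 (8.53 to 8.63), Sec24c at 8.30 (8.77 to 8.88), Lman2 at 9.90 (10.15 to 10.20) and Tmed2 at 8.85 (9.22 to 9.37), all low, while Arf4 was high at 10.64 (10.47 to 10.52). On untreated replicate 1, Bet1 was low at 7.90 (8.40 to 8.48), Mcfd2 at 6.08 (6.33 to 6.42) and Copb2 at 9.90 (10.21 to 10.33). Lman1 was high on untreated replicate 2 at 10.94 (10.82 to 10.85), Lman2 low on untreated replicate 3 at 9.97 (10.14 to 10.21) and Tmed9 high on rapamycin replicate 1 at 8.34 (7.98 to 8.05). Without rapamycin replicate 4, the log2 difference was 0.11 for Arf1, 0.12 for Copa, 0.13 for Gbf1 and 0.24 for Sec24c, against -0.11, 0.03, 0.04 and 0.14 with it.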

How the results depend on the processing

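The count of traffic genes higher at an adjusted p under 0.05 was 0 under all 19 alternative fits. The count lower was 0, but 1, Tfg, when only genes above the median level were tested, in the filtered table, with quantile normalization repeated and at an adjusted p under 0.1. Fewer genes were tested in the first and second of these (11090 and 10720), where 70 and 107 genes were called against 34. Why Tfg passed in either of them, or with quantile normalization repeated, was not tested. They are fits of the same arrays. At an unadjusted p under 0.05, 1 gene was higher and 3 were lower, against 0 and 1 in the filtered table. That table holds 20 of the 49, among them all 3 lower genes but not Tmed10. Its values equal those of the full table, and Sec24a differed by -0.20 in both fits. What moved the p-values of Sec24a and Copb1 there was not tested. With quantile normalization repeated 6 were lower, where 4.43% of all genes were, against 3.26%. With the mean of probe sets 0 were higher, beside 6.06% of all genes. Leaving out an array gave 1 to 3 higher and 2 to 7 lower, beside 5.26% to 6.06% and 2.83% to 3.68% of all genes. The median log2 difference of the 49 stayed between -0.04 and 0.03. Of the other pathway genes 6 were higher and 2 lower at the unadjusted threshold, beside 6.13% and 3.26% of all genes. In the filtered table, which holds only part of these genes, 2 were higher, beside 7.52% of all its genes. With quantile normalization repeated 3 were higher, beside 4.97% of all genes. With an array left out 4 to 9 were higher and 1 to 4 lower, beside 5.26% to 6.06% and 2.83% to 3.68% of all genes. Over all genes 34 were called, against 107 in the filtered table, 70 above the median level, 51 with array weights, 21 with a replicate block and 20 to 39 without an array. With a replicate block 0 traffic genes passed, Tfg had an adjusted p of 0.165 in limma, and no call of a traffic gene changed. The sign of the difference was opposite under some alternative for 20 of the 49 genes, none of which had an unadjusted p under 0.05. The number of arrays and the dim second probe sets limit what can be seen.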
